A study of Bos taurus with 33 samples.

Results

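The transcripts described here are 9 genes of KIT signalling and of the phosphatidylinositol 3-kinase (PI3K) pathway below it: KIT, KITLG, PIK3CA, AKT1, FOXO1, FOXO3, TSC1, TSC2 and MTOR. They were chosen by symbol and followed by Ensembl identifier, and they are 9 of 16279 genes listed for bovine oocytes and 9 of 16244 listed for the cumulus cells (CC) around them. KIT ligand, encoded by KITLG, is made by the somatic cells of the follicle and binds KIT, a receptor tyrosine kinase on the oocyte. The activated receptor recruits PI3K, whose lipid product brings AKT to the membrane. AKT then inactivates FOXO transcription factors, and by phosphorylating the TSC1-TSC2 complex it relieves the brake on the growth kinase MTOR. In oocytes this route is best known for releasing primordial follicles from dormancy and for oocyte growth. Most of the signal passes by phosphorylation, which transcript levels do not record.

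All cows were suckled postpartum beef cows that had received GnRH and then prostaglandin F2α to bring a follicle towards ovulation. Small follicles measured up to 11.7 mm and large ones at least 12.7 mm. Both came from cows without estrus, in which a second GnRH injection induced the gonadotropin surge. Spontaneous follicles (11.7 to 14.0 mm) came from cows in estrus with an endogenous surge and no second GnRH. Per the study, follicle diameter differed among all 3 classifications. Estrus, the kind of surge and the diameter thus all differ between spontaneous follicles and either small or large ones. Aspiration followed about 23 h after GnRH or estrus according to the treatment text and about 20 h according to the sample characteristics. Each library was made from 4 cumulus-oocyte complexes pooled within a follicle classification, either from the oocytes or from their CC, so a pool mixes several cows. There were 6 small, 6 large and 4 spontaneous oocyte pools, and 6, 6 and 5 CC pools.

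Between 7664375 and 17934916 reads fell on genes in the oocyte pools, and between 1911600 and 5772431 in the CC pools. Values are counts scaled to 1000000 reads on genes (CPM). Without a read, a transcript could still have stood at up to 0.391 CPM in oocytes or 1.57 CPM in CC (3 reads; counting error only, since amplified reads are not independent molecules). Small CC replicate 3 stood apart with the fewest reads and 39.8% of them on mitochondrially encoded genes, against 11.6 to 28.8% in the other CC pools. Small oocyte replicate 3 was likewise the shallowest oocyte pool, with 4.41% of its reads on mitochondrially encoded genes against at most 2.41% in the others. The cell types matched their labels by most markers. Of 10 oocyte markers, the 6 measured in CC summed to 0 to 7.83 CPM there, and ZP2, an egg coat protein, had a median of 0 CPM in CC and 4261 CPM in oocytes. Of 12 cumulus and granulosa markers, HAS2 and STAR went the other way, with medians of 186 and 388 CPM in oocytes and 50.5 and 5.64 CPM in CC.

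KITLG, the ligand, was a CC transcript. Its CC values ran from 50.2 to 249 CPM (median 113 CPM, 17 pools) and its oocyte values from 2.67 to 21.7 CPM (median 8.60 CPM, 16 pools). Every CC pool was above every oocyte pool, which held for 12.7% of the 8083 genes retained in both tables. The oocyte and CC tables were scaled separately, so the levels are set side by side and no test was made between cell types. In the same oocyte pools INHA, the inhibin alpha subunit of granulosa cells, had a median of 30.9 CPM against 1868 CPM in CC, and TNFAIP6, a protein of the expanding cumulus matrix, 7.82 against 1302 CPM. The oocyte median was thus 7.62% of the CC median for KITLG, 1.65% for INHA, 0.600% for TNFAIP6 and 6.35% for GJA1, a gap junction protein. The part of attached CC in the KITLG reads of oocyte pools was not tested. Gene-level values do not separate the membrane-bound and soluble forms that splicing of KITLG gives.

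KIT, the receptor, was high in oocytes and was also read in every CC pool. In oocytes it ranged from 283 to 525 CPM (median 407 CPM), which put it at the 96.2th percentile of the transcripts with a read in a pool (median over pools). In CC it ranged from 39.9 to 350 CPM (median 152 CPM), at the 91.7th percentile. CPM are not corrected for transcript length, so these percentiles rank reads and not molecules. The ranges overlapped, because the 350 CPM of small CC replicate 4 lay above the lowest oocyte pools, and the CC median was 37.3% of the oocyte median. Oocyte markers were near 0 in the CC pools that held KIT. The CC median of KIT was 152 CPM where those of GDF9 and NLRP5, an oocyte growth factor and a maternal effect gene, were each 0.418 CPM, against 806 and 139 CPM in oocytes. Mast cells also carry KIT, and the 4 mast cell markers measured in CC summed to 0 to 5.13 CPM. HDC had a read in 12, CPA3 in 8, FCER1A in 6 and GATA2 in 1 of the 17 CC pools. White blood cell markers were present in CC at a summed 30.4 to 188 CPM over 10 genes. Theca markers summed to 209.8 to 2785 CPM in CC over 6 genes (209.8 to 1062 in small, 386.9 to 879.9 in large and 487.5 to 2785 CPM in spontaneous pools). These 6 disagreed. CC medians were 360.5 CPM for INSL3, 170 for PDGFRA, 21.1 for NR2F2, 5.66 for LHCGR, 4.31 for COL1A2 and 0 for CYP17A1. COL1A2 reached 2117 CPM in its highest CC pool. NR2F2 and COL1A2 had higher medians in oocytes, at 32.5 and 6.08 CPM. Endothelium markers summed to 7.39 to 71.7 CPM in CC over 6 genes. The part of white blood, theca and endothelial cells in the KIT values was not tested.

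**Figure D1:**
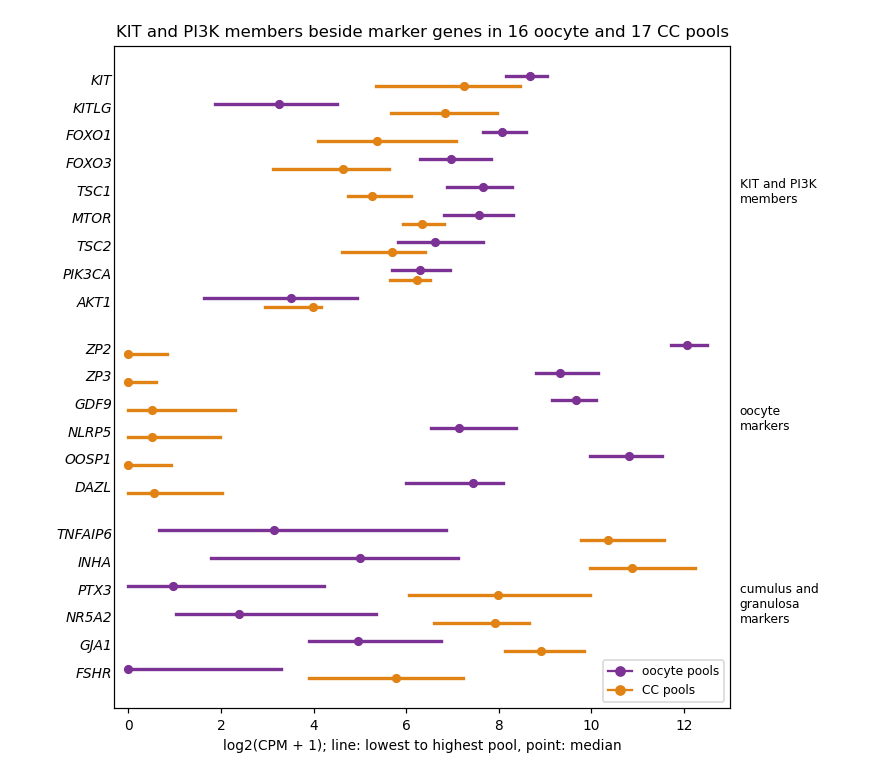
Level on a log2(CPM + 1) axis of each of the 9 transcripts and of marker genes in 16 oocyte pools (purple) and 17 CC pools (orange), with a line from the lowest to the highest pool and a point at the median. KITLG lies wholly higher in CC, FOXO1, FOXO3 and TSC1 lie wholly higher in oocytes, and KIT stays high in CC where the oocyte markers are near 0.

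Below the receptor, FOXO1, FOXO3 and TSC1 were oocyte transcripts by the same measure. FOXO1, a forkhead factor that AKT excludes from the nucleus, ranged from 202.5 to 384.5 CPM in oocytes and from 16.2 to 134 CPM in CC. FOXO3, the forkhead factor that holds primordial follicles dormant in mice, ranged from 77.8 to 226 CPM in oocytes and from 7.67 to 48.3 CPM in CC. TSC1, the stabilising partner of the TSC complex, ranged from 117 to 311 CPM in oocytes and from 25.6 to 67.9 CPM in CC. For these 3 genes every oocyte pool was above every CC pool, with oocyte medians 6.63, 5.16 and 5.32 times the CC medians, and 22.5% of the 8083 genes retained in both tables had pools apart in that direction.

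The ranges of the remaining 4 downstream transcripts overlapped between cell types. MTOR, the growth kinase, had medians of 188 CPM in oocytes and 79.5 CPM in CC, and only the lowest oocyte pool, at 111 CPM, reached down to the highest CC pool, at 112 CPM. TSC2, which carries the GTPase-activating activity of the TSC complex, had medians of 97.4 and 50.5 CPM. PIK3CA, a catalytic subunit of PI3K, had medians of 77.3 CPM in oocytes and 73.7 CPM in CC, the closest of the 9. AKT1, the ubiquitous AKT kinase, was low in both, at 2.13 to 29.6 CPM in oocytes (26 to 438 reads) and 6.77 to 16.9 CPM in CC (17 to 86 reads). In total 1 of the 9 had all CC pools above all oocyte pools, 3 had all oocyte pools above all CC pools, and 5 overlapped. The CPM totals include mitochondrially encoded genes, which took 11.6 to 39.8% of reads in CC and 0.786 to 4.41% in oocytes. That lowers the CPM of other genes more in CC, so close medians such as those of PIK3CA depend on the scaling.

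The spread between pools differed among the 9. In oocytes KIT varied least, with a coefficient of variation of 16.1% over 16 pools, followed by FOXO1 at 17.3%, and AKT1 varied most, at 61.3%, with KITLG at 57.1%. In CC the order changed: PIK3CA varied least, at 16.5% over 17 pools, and FOXO1 most, at 55.0%, with KIT at 48.5% and KITLG at 46.8%. The median coefficient over the 9 was 27.6% in oocytes and 27.8% in CC, beside 45.8% and 33.9% over all retained transcripts. The 9 and all retained transcripts were not matched for level. In oocytes AKT1 and KITLG, the most variable of the 9, also had the lowest medians.

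**Figure D2:**
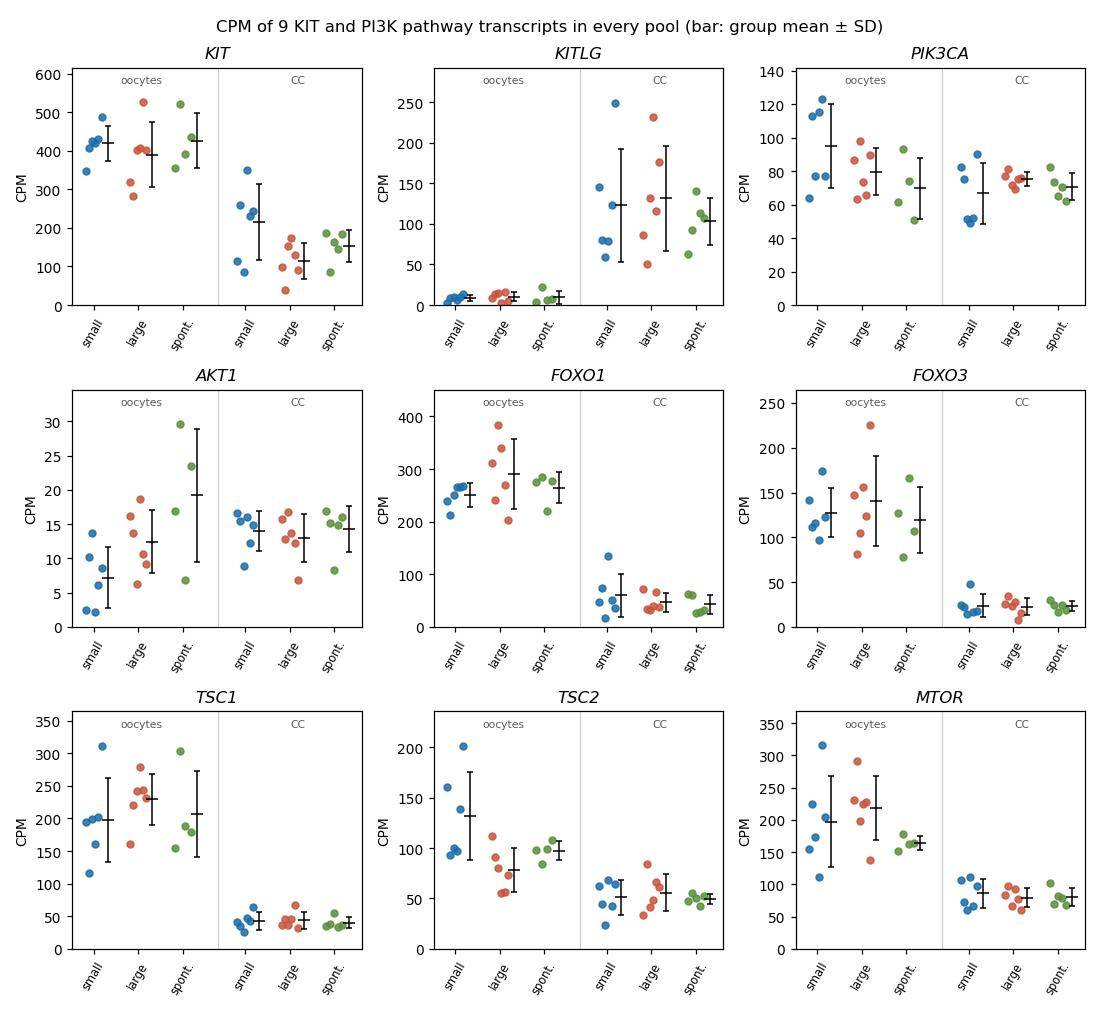
CPM of each of the 9 transcripts in every pool (points), by follicle classification within oocytes (left of each panel) and CC (right), with the group mean and SD as a bar. TSC2 is lower in large than in small oocytes (78.1 and 132 CPM on average), KIT is lower in large than in small CC (114 and 214 CPM), and most other groups overlap widely.

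The comparison of follicle classifications asked whether the level of these transcripts differed between classes. Diameter, estrus and the kind of gonadotropin surge cannot be told apart in comparisons with spontaneous follicles. Differences are in log2(CPM + 1), tested with limma in a two-sided test. A difference passed at a nominal p no higher than 0.01, and in comparisons with small oocytes a transcript also had to pass without small oocyte replicate 3. Over 9 transcripts and 6 comparisons 1 difference passed, that of TSC2 between small and large oocytes. That 1 of 9 stood beside 0.655% of 10076 retained transcripts for small to large oocytes. In the other oocyte comparisons 0 of 9 passed, where 0.774% of all retained transcripts did so for small to spontaneous and 0.943% for large to spontaneous. In CC 0 of 9 passed, beside 0.813% of 9712 retained transcripts for small to large, 2.38% for small to spontaneous and 1.66% for large to spontaneous.

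At an unadjusted p under 0.05 the counts from limma were 1, 1 and 0 of 9 in oocytes from small to large, small to spontaneous and large to spontaneous, where 4.11%, 4.51% and 4.87% of all retained transcripts passed. In CC they were 1, 0 and 0 of 9, beside 4%, 8.55% and 7.07%. None of the 9 had a Benjamini-Hochberg adjusted p under 0.05 in limma (lowest 0.757). Over all retained transcripts the share was 0% in each oocyte comparison, and in CC 0% for small to large, 0.0309% for small to spontaneous and 0.0103% for large to spontaneous.

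TSC2 was lower in oocytes from large than from small follicles. Small oocyte pools held 92.9 to 201.3 CPM (median 120 CPM, n = 6), large oocyte pools 55.2 to 112 CPM (median 76.4 CPM, n = 6), and the 4 spontaneous pools 98.1, 84.4, 98.9 and 108 CPM. Of the large pools 5 of 6 lay below every small pool, the exception being large replicate 1 at 112 CPM, and the spontaneous pools lay among the lowest small and the highest large ones. Mean TSC2 was 132 ± 43.4 CPM (SD, n = 6) in small and 78.1 ± 21.7 CPM (SD, n = 6) in large oocytes, a 1.69-fold difference. The log2 difference was -0.73 (95% interval -1.22 to -0.25; limma nominal p = 0.00446, adjusted p = 0.997; exact permutation test of mean CPM, two-sided, p = 0.0173, where the smallest possible is 0.00216). It passed the nominal threshold with edgeR and DESeq2 and under each other scaling and filter tried, but not without small replicate 1, 5 or 6 or large replicate 4 or 5, where p was 0.0101 to 0.0186 and the difference -0.60 to -0.70. TSC2 in spontaneous oocytes differed from neither other class beyond the spread, by -0.38 from small (95% interval -0.90 to 0.15) and by 0.35 from large (-0.17 to 0.88).

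In CC the classes overlapped for TSC2. Small CC pools held 23.5 to 68.6 CPM (median 53.6 CPM), large CC pools 33.4 to 84.4 CPM (median 54.8 CPM) and the 5 spontaneous pools 47.0, 55.0, 50.5, 42.8 and 52.9 CPM. The difference from small to large follicles was 0.87 higher in CC than in oocytes on the log2 scale (95% interval 0.09 to 1.65; limma adjusted p = 0.9996), which missed the threshold for TSC2. The oocyte and CC pools came from the same complexes, but the fit between cell types took all pools as independent, with no pairing. For these differences of differences 0 of 9 passed the nominal threshold in any of the 3 comparisons, beside 0.854%, 1.19% and 1.31% of the 8083 genes retained in both tables. At an unadjusted p under 0.05 the limma counts were 1, 1 and 0 of 9, beside 3.8%, 6.02% and 5.18%. An adjusted p under 0.05 was reached by 0% in each.

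TSC1, the partner of TSC2, overlapped between classes in oocytes. Its small oocyte pools held 117 to 311 CPM (median 196 CPM) and its large ones 160 to 278 CPM (median 236.5 CPM), so the large pools lay within the range of the small. The log2 difference of TSC1 was 0.26 (95% interval -0.14 to 0.65; exact permutation test, two-sided, p = 0.320).

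**Figure D3:**
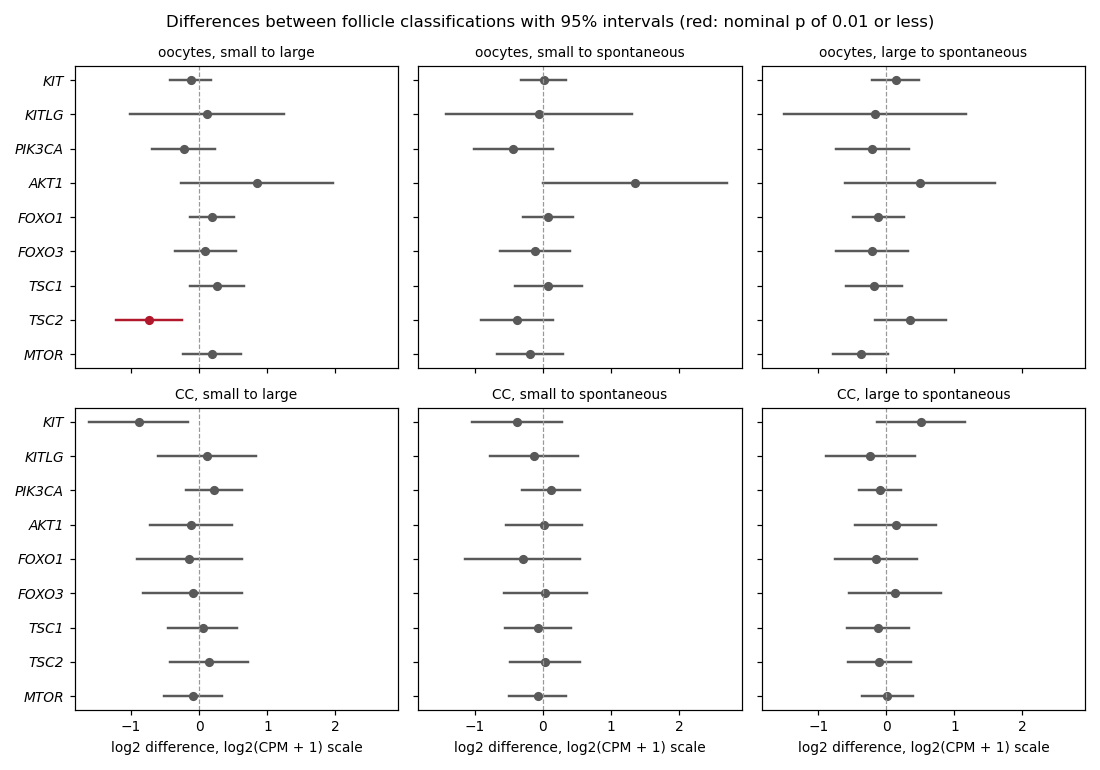
Log2 differences of the 9 transcripts between follicle classifications (points) with 95% intervals (lines), in oocytes (upper row) and CC (lower row). Only TSC2 from small to large oocytes passes the nominal threshold (red), at -0.73, and the widest intervals belong to the low transcripts AKT1 and KITLG in oocytes.

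KIT differed most in CC. Small CC pools held 84.7 to 350 CPM (median 237 CPM, n = 6), large CC pools 39.9 to 172.5 CPM (median 114 CPM, n = 6), and the spontaneous pools 187, 85.6, 163, 144 and 185 CPM. Of the small pools 4 of 6 lay above every large and every spontaneous pool, while small replicates 1 and 3 lay among the large ones. Mean KIT was 214 ± 98.4 CPM (SD, n = 6) in small and 114 ± 47.8 CPM (SD, n = 6) in large CC. The log2 difference of -0.88 (95% interval -1.61 to -0.16) missed the threshold (limma nominal p = 0.0194, adjusted p = 0.999; exact permutation test, two-sided, p = 0.0476).

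The call on KIT in CC depended on the processing. It passed at -0.94 with median-of-ratios scaling and with edgeR or DESeq2 on the recovered reads, and at -0.99 with CPM taken over genes other than the mitochondrially encoded ones. The adjusted p over the alternatives with every pool in ran from 0.737 to 0.999. Mitochondrially encoded genes took 11.6 to 39.8% of reads in small and 13.1 to 24.8% in large CC pools. Without small CC replicate 3, the shallow pool, KIT differed by -1.12 and passed, as it did without small CC replicate 1 or large CC replicate 4 (-1.03 each). Without large CC replicate 2, its lowest pool, it differed by -0.61 and did not pass. The summed oocyte markers were 0 to 4.60 CPM in small and 0.852 to 7.83 CPM in large CC, and the summed mast cell markers 0.613 to 5.13 and 0 to 2.55 CPM. A lower level per pool can come from fewer cells with the transcript or from less of it per cell, and these cannot be told apart in pooled libraries. KIT in spontaneous CC differed by -0.38 from small CC (95% interval -1.04 to 0.29), by -0.61 without small CC replicate 3, by -0.20 without small CC replicate 4 and by -0.18 without spontaneous CC replicate 2, none of which passed. It differed by 0.51 from large CC (95% interval -0.14 to 1.16).

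KIT in oocytes overlapped between all classes. Small oocyte pools held 347 to 487 CPM (median 423 CPM), large ones 283 to 525 CPM (median 401 CPM), and the 4 spontaneous pools 356, 522, 391 and 436 CPM. Means were 419 ± 45.1 (SD, n = 6), 390 ± 84.0 (SD, n = 6) and 426 ± 71.8 CPM (SD, n = 4). The 95% intervals of the log2 difference were -0.42 to 0.17 from small to large, -0.31 to 0.35 for small to spontaneous and -0.20 to 0.49 for large to spontaneous. The difference from small to large follicles was 0.76 lower in CC than in oocytes for KIT (95% interval -1.60 to 0.08; limma adjusted p = 0.9996), which did not separate the cell types.

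**Figure D4:**
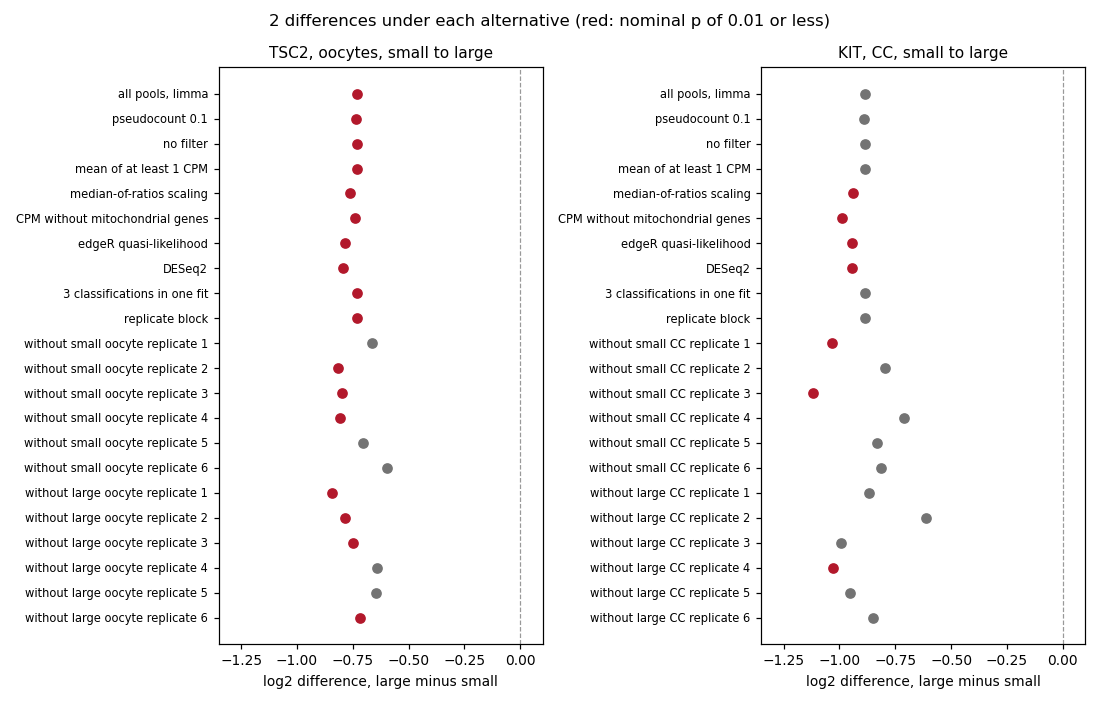
Log2 difference from small to large follicles of TSC2 in oocytes (left) and KIT in CC (right) with all pools, under each other processing and with each pool left out, in red where the nominal p is 0.01 or less. Every point lies below 0, between -0.84 and -0.60 for TSC2 and between -1.12 and -0.61 for KIT, while the call changes with the pools and, for KIT, with the scaling.

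KITLG in CC spread widely within the small and large classes. Small CC pools held 59.1 to 249 CPM (median 102 CPM), large ones 50.2 to 231 CPM (median 123.5 CPM), and the 5 spontaneous pools 62.7, 92.5, 141, 113 and 107 CPM. Mean KITLG was 123 ± 69.5 (SD, n = 6), 132 ± 64.6 (SD, n = 6) and 103 ± 28.7 CPM (SD, n = 5). The 95% intervals of the KITLG differences in CC were -0.61 to 0.83, -0.77 to 0.52 and -0.89 to 0.42 for small to large, small to spontaneous and large to spontaneous. Differences within these bounds, in either direction, remain compatible with the values. In oocytes, where 33 to 321 reads per pool stood behind each value, the intervals for KITLG were wider, -1.02 to 1.24 from small to large, -1.42 to 1.31 for small to spontaneous and -1.50 to 1.17 for large to spontaneous.

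AKT1 in oocytes ran in the order small, large, spontaneous. Small oocyte pools held 2.13 to 13.7 CPM (median 7.34 CPM, n = 6), large ones 6.30 to 18.6 CPM (median 12.2 CPM, n = 6), and the 4 spontaneous pools 16.9, 29.6, 6.90 and 23.4 CPM. Neighbours in that order did not differ beyond their spread, by 0.85 from small to large and by 0.50 from large to spontaneous (exact permutation tests, two-sided, p = 0.0714 and 0.171). Between the ends, 3 of 4 spontaneous pools lay above every small pool. The log2 difference of AKT1 was 1.35 (95% interval 0.00 to 2.70; limma nominal p = 0.0499, adjusted p = 0.987; exact permutation test, two-sided, p = 0.0286, smallest possible 0.00476), which missed the threshold. In CC, AKT1 was 8.89 to 16.6 CPM in small, 6.77 to 16.8 CPM in large and 8.35 to 16.9 CPM in spontaneous pools, with full overlap. The difference of AKT1 from small to spontaneous follicles was 1.33 lower in CC than in oocytes (95% interval -2.62 to -0.05; limma adjusted p = 0.823), which missed the threshold. Without spontaneous oocyte replicate 3, the lowest AKT1 pool of its class at 6.90 CPM, this difference for AKT1 was -1.73 and passed. With any other single pool left out it missed the threshold, and it was weakest at -1.08, without spontaneous oocyte replicate 2.

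PIK3CA and MTOR had their lowest oocyte means in spontaneous pools, without passing. PIK3CA means in oocytes were 95.1 ± 24.9 (SD, n = 6), 79.7 ± 14.0 (SD, n = 6) and 69.8 ± 18.3 CPM (SD, n = 4) in small, large and spontaneous pools, and the log2 difference from small to spontaneous was -0.43 (95% interval -1.01 to 0.15; exact permutation test, two-sided, p = 0.129). MTOR in large oocyte pools was 138 to 291 CPM (median 226 CPM, n = 6), and the 4 spontaneous pools lay close together at 152.5, 179, 163 and 165 CPM. Of the large pools 5 of 6 were above every spontaneous pool, and the log2 difference of MTOR was -0.37 (95% interval -0.78 to 0.03; limma nominal p = 0.0673; exact permutation test, two-sided, p = 0.0667). In CC, PIK3CA was tightest in large pools, at 69.3 to 81.5 CPM (n = 6), within the 49.2 to 90.3 CPM of the small ones. MTOR in CC had means of 85.9 ± 21.9 (SD, n = 6), 79.4 ± 14.4 (SD, n = 6) and 80.1 ± 13.5 CPM (SD, n = 5).

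The forkhead transcripts showed no class difference past the threshold. FOXO1 in oocytes averaged 251 ± 22.2 (SD, n = 6), 291 ± 66.7 (SD, n = 6) and 265 ± 29.9 CPM (SD, n = 4) in small, large and spontaneous pools, and 4 of 6 large pools lay above every small pool with 1 below them all. FOXO1 in CC spread most among small pools, from 16.2 to 134 CPM. FOXO3 averaged 127 ± 27.3 (SD, n = 6), 140 ± 50.1 (SD, n = 6) and 119 ± 36.9 CPM (SD, n = 4) in oocytes, and 23.9 ± 12.5 (SD, n = 6), 22.6 ± 9.54 (SD, n = 6) and 23.0 ± 5.44 CPM (SD, n = 5) in CC. The lowest exact permutation p of FOXO1 and FOXO3 over the 6 comparisons was 0.199, for FOXO1 from small to large oocytes.

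The 9 transcripts are given together by their median. The median log2 difference of the 9 in oocytes was 0.11 from small to large, -0.06 for small to spontaneous and -0.17 for large to spontaneous, beside 0.05, 0.05 and 0.01 over all retained transcripts. In CC it was -0.09, -0.07 and -0.09, beside 0.04, 0.16 and 0.11. The comparisons share pools, and no test was made of the group.

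Other genes of the pathway, 66 in 8 lists by role, were tested in the same fits. In oocytes 56 of them were retained and 0 passed the nominal threshold in any comparison in limma. Of all retained transcripts 0.655%, 0.774% and 0.943% passed from small to large, small to spontaneous and large to spontaneous. At an unadjusted p under 0.05 the counts in that order were 0, 2 and 2 of 56, beside 4.11%, 4.51% and 4.87%. In CC 52 were retained and 1 passed, beside 0.813%, 2.38% and 1.66% of all retained transcripts. It was FOXO4 from small to large, which met the filter on low values only through its small pools and is given as a description. At an unadjusted p under 0.05 the CC counts were 2, 8 and 1 of 52, beside 4%, 8.55% and 7.07%. FOXO4 is counted in the 2 and in the 8. Median log2 differences of the 52 in CC were 0.00, 0.17 and 0.13, beside 0.04, 0.16 and 0.11 over all retained transcripts, and those of the 56 in oocytes were -0.07, 0.00 and 0.07, beside 0.05, 0.05 and 0.01.

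FOXO4, another forkhead target of AKT, was near the filter on low values in CC. It reached 5 CPM in all 6 small pools but in only 1 of 6 large and 2 of 5 spontaneous pools, so it was retained through the class where it is high, and its differences are given as a description. Small CC pools held 5.83 to 16.7 CPM (median 10.4 CPM, n = 6) and large ones 0.852 to 5.86 CPM (median 2.06 CPM, n = 6), and 5 of 6 large pools lay below every small pool. Means were 10.8 ± 4.10 (SD, n = 6) and 2.69 ± 1.86 CPM (SD, n = 6). The log2 difference of FOXO4 was -1.74, also without the filter (limma adjusted p = 0.999 with it). The 5 spontaneous CC pools, at 2.90 to 8.35 CPM (mean 4.98 ± 2.10 CPM, SD), lay between, -0.97 from small. That difference of FOXO4 missed the threshold with all pools in limma. The outcome changed with the scaling, the tool and the pool left out, and no call is made on FOXO4. In oocytes FOXO4 was 0.390 to 33.3 CPM and its classes overlapped.

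PDPK1, the kinase that activates AKT, averaged 192 ± 46.1 (SD, n = 6), 181 ± 23.4 (SD, n = 6) and 232 ± 34.2 CPM (SD, n = 4) in oocytes and less in CC, at 50.8 ± 38.0 (SD, n = 6), 50.1 ± 9.08 (SD, n = 6) and 52.6 ± 6.88 CPM (SD, n = 5). RHEB, the GTPase that TSC2 switches off, averaged 93.2 ± 41.8 (SD, n = 6), 81.7 ± 41.4 (SD, n = 6) and 72.0 ± 23.7 CPM (SD, n = 4) in oocytes.

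RPS6KB1, the S6 kinase below MTOR, averaged 84.3 ± 36.9 (SD, n = 6), 62.6 ± 18.5 (SD, n = 6) and 62.3 ± 31.3 CPM (SD, n = 4) in oocytes and 58.6 ± 5.93 (SD, n = 6), 59.1 ± 13.7 (SD, n = 6) and 67.0 ± 10.3 CPM (SD, n = 5) in CC. CDKN1B, a cell cycle inhibitor and FOXO target, averaged 106 ± 30.7 (SD, n = 6), 90.9 ± 19.7 (SD, n = 6) and 99.2 ± 34.5 CPM (SD, n = 4) in oocytes and 65.1 ± 19.4 (SD, n = 6), 61.1 ± 11.5 (SD, n = 6) and 68.3 ± 9.19 CPM (SD, n = 5) in CC. None of RHEB, RPS6KB1 and CDKN1B passed in any comparison.

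**Figure D5:**
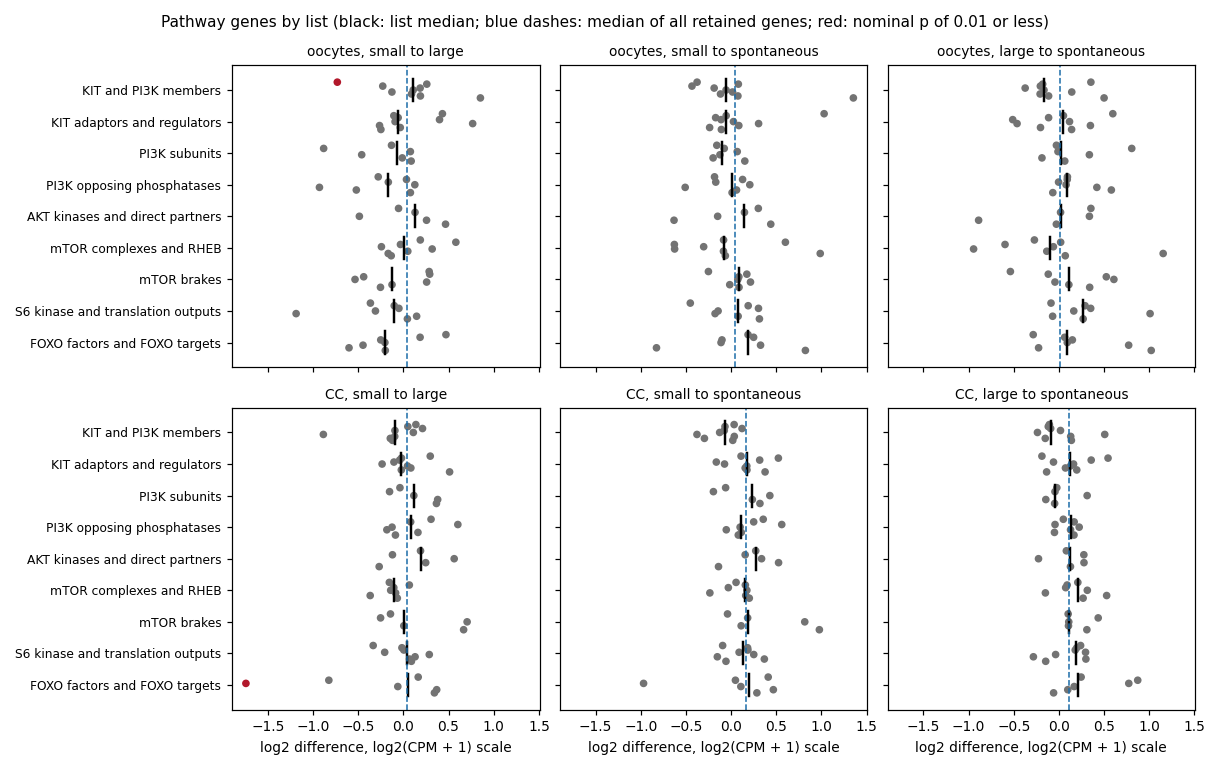
Log2 differences of the 9 transcripts and of the other pathway genes (points) by list and comparison, with each list's median (black) and the median of all retained transcripts (blue dashes). TSC2 in oocytes and FOXO4 in CC from small to large follicles are the 2 points past the nominal threshold (red), and the list medians lie between -0.20 and 0.27. FOXO4 met the filter on low values only through its small CC pools, so its point is a description.

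The 9 transcripts were also compared with each other across pools. Of 72 pairs (36 in each cell type) 6 had a permutation p under 0.05 for Pearson's r of log2(CPM + 1), and none after adjustment over the 72. The strongest in CC was TSC1 with TSC2, with Pearson's r = 0.63 (permutation p = 0.00753, adjusted 0.424) and Spearman's rho = 0.64 (permutation p = 0.00672, adjusted 0.242) over 17 pools. For TSC1 and TSC2 r was 0.62 within classifications and 0.59 without the 2 pools farthest from the median of TSC1. The strongest in oocytes was KITLG with FOXO3, negative at r = -0.57 (permutation p = 0.0208, adjusted 0.500) and rho = -0.54 (permutation p = 0.0333, adjusted 0.492) over 16 pools, and it was -0.56 without the 2 farthest pools. KIT and KITLG gave r = 0.33 in CC and 0.39 in oocytes (permutation p = 0.194 and 0.131).

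The transcripts most like KIT over the 16 oocyte pools, by Pearson's r of log2(CPM + 1) among 10075 others, were YEATS2 (r = 0.79, 185 to 301 CPM), TMEM267 (0.76, 25.2 to 90.7 CPM) and TM9SF2 (0.75, 124 to 373 CPM). Those most like KITLG over the 17 CC pools, among 9711 others, were TM4SF1 (r = 0.92, 48.8 to 1329 CPM), IFRG15 (0.91, 213 to 616 CPM) and SLMAP (0.90, 158 to 611 CPM). The listed genes were picked as the highest of 10075 correlations over 16 pools and of 9711 over 17 pools. Whether these r exceed the highest that unrelated transcripts would reach in so large a search was not tested. Pools share a depth and a total, so these values describe these libraries and are not evidence of a link with KIT or KITLG.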

How the data were processed

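RNA of pooled oocytes or CC was amplified and sequenced as single-end reads. After trimming, the authors used Hisat2 for alignment to UMD3.1 and FeatureCounts for counts per Ensembl gene, and deposited CPM in separate oocyte and CC tables. All CPM were whole multiples of 1 read (100% of values, tolerance 0.1 read), so reads were recovered for edgeR and DESeq2.

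Transcripts with at least 5 CPM in 4 oocyte or 5 CC pools were retained (10076 and 9712). limma with a mean-variance trend was fitted to log2(CPM + 1) between pairs of classifications, without covariates. In simulations, 200 changed transcripts were used to check each fit. Exact permutation tests compared mean CPM, and 100000 permutations were used for correlations. The study tested counts and called a transcript at a nominal p no higher than 0.01 in both edgeR and DESeq2. Here limma was the first test because CPM were deposited, with edgeR and DESeq2 on the recovered reads as alternatives.

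The 9 genes, the 66 other pathway genes and the marker lists were chosen with earlier results of these data known. Named beyond the 9 were pathway genes past p of 0.01, fixed genes (PDPK1, RHEB, RPS6KB1, CDKN1B) and the 3 genes most like KIT and KITLG. Libraries within a group differed by more than counting error (chi-square at least 13.4 per degree of freedom). Per the study's methods each CC pool held the cells stripped from pooled oocytes, so the cell types share cows. P-values measure the spread between pools. Some results that the rule names are not reported here. No sequences or coordinates are shown. R 4.3.3, limma 3.58.1, edgeR 4.0.16, DESeq2 1.42.0 and Python 3.11.15 were used.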

Additional observations from a re-analysis of the deposited data

Results flagged for a closer look

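Of 54 groups of 4 to 6 pools (9 transcripts in 6 groups), 4 held a pool far from the others by Dixon's criterion, where chance gives about 1 in 20. AKT1 was 8.35 CPM in spontaneous CC replicate 3, against 14.9 to 16.9 CPM in the other 4 pools. TSC1 was 55.0 CPM in the same library, spontaneous CC replicate 3, against 33.9 to 37.7 CPM in the others. FOXO1 was 220 CPM in spontaneous oocyte replicate 3, against 276 to 284 CPM in the other 3. FOXO3 was 48.3 CPM in small CC replicate 4, against 14.1 to 24.2 CPM in the other 5, and that library also held the highest KIT value in CC, 350 CPM.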

How the results depend on the processing

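TSC2 passed in small to large oocytes under all 9 alternatives with every pool in, giving 1 of 9 each time, and 0 to 1 of 9 when a pool was left out. In CC from small to large the count was 0 of 9, and 1 of 9 (KIT) with median-of-ratios scaling, CPM without mitochondrially encoded genes, edgeR and DESeq2. With a pool left out it was 0 to 1. The count of members whose difference differs between cell types from small to spontaneous was 0, and 0 to 1 (AKT1) with a pool left out. The other 6 counts were 0 under each alternative run. Deviations from the class mean correlated at -0.19 to 0.22 between pools of the same replicate number in different classifications. Pools of unlike number were not set beside them, so whether same-numbered pools share a batch was not tested. With a replicate block the counts were 1 of 9 for TSC2 and 0 of 9 in the other 5 comparisons within a cell type. The block and the joint fit of the classifications were not run between cell types.

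Of the 54 within-cell-type differences 28 kept their sign under every alternative and every pool left out, and none that changed sign exceeded 0.19 in size. Printed differences of KIT and KITLG that changed sign were KIT in oocytes from small to spontaneous (-0.028 with median-of-ratios scaling, -0.015 with edgeR, -0.022 with DESeq2, and -0.087 to 0.097 with a pool left out) and KITLG there (0.12 with edgeR, 0.11 with DESeq2, 0.20 with the replicate block, -0.52 to 0.28 with a pool left out). With a pool left out KITLG in oocytes ran from -0.12 to 0.39 from small to large and from -0.63 to 0.17 from large to spontaneous. In CC it ran from -0.083 to 0.354 from small to large and from -0.30 to 0.11 from small to spontaneous, where the replicate block gave 0.11. The cause was not tested. Group means were recomputed with median-of-ratios scaling and with CPM without mitochondrially encoded genes, 108 in all over both scalings. Of these 8 moved by over 1 SD. All 8 were raised by CPM without mitochondrially encoded genes, in CC (MTOR and PIK3CA in each class, AKT1 in small and TSC2 in spontaneous pools). CC pools were shallower than oocyte pools, and AKT1 and FOXO3 rested on as few as 17 and 27 reads.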
